A study of Mus musculus with 12 samples.

Results

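The genes described here encode the proteins of the 2 ribosomes of a mouse cell, the cytosolic ribosome and the mitochondrial ribosome, measured in bone-marrow-derived macrophages given interleukin 4 (IL4) and all-trans retinoic acid (RA). They were chosen by symbol alone. Symbols that start with Rpl or Rps and a number, or with Rplp and a number, and Rpsa, made the cytosolic set, with the S6 kinase genes left out. Symbols that start with Mrpl or Mrps and a number made the mitochondrial set. The rule found 100 cytosolic and 78 mitochondrial genes, together 178 of the 13553 genes in the table. The 100 cytosolic genes held 77 core proteins, 31 of the small (40S) subunit and 46 of the large (60S) subunit. The other 23 were 6 paralogues, 16 pseudogene or retrogene copies, and Rps19bp1, which encodes a protein that binds Rps19 and is not itself a ribosomal protein. The 78 mitochondrial genes held 29 of the small and 49 of the large subunit.

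All cells came from the bone marrow of wild-type male C57BL/6 mice and had grown for 7 days with M-CSF at 10 ng/mL, which turns marrow progenitors into macrophages. IL4 cells had received 20 ng/mL IL4 for 24 h, and naive cells had been kept in medium without IL4. Both kinds of cells were then washed and given 1 µM RA, a ligand of nuclear receptors that the body makes from vitamin A, or its vehicle DMSO for 6 h. This made 4 groups of 3 libraries, called IL4 RA, IL4 vehicle, naive RA and naive vehicle, each with replicates 2, 3 and 4. The labels do not say whether replicates were separate animals or cultures, so a p-value here reflects no more than how these libraries spread, which may be technical. In bulk RNA, fewer cells of a kind and less RNA per cell cannot be told apart.

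A cytosolic ribosome is built in the nucleolus from ribosomal RNA and a single copy of most ribosomal proteins, so the cell makes these proteins in matched amounts. Their mRNAs are among the most abundant of the cell and typically begin with a C followed by an unbroken run of pyrimidines, the 5′ terminal oligopyrimidine (TOP) sequence, through which the kinase mTORC1 and the RNA-binding protein Larp1 control their translation. The mitochondrial ribosome translates the few mRNAs encoded in mitochondrial DNA, but all of its proteins are encoded in the nucleus and imported. Some of them have counterparts in the bacterial ribosome and others are found only in mitochondria. Myc is a textbook activator of ribosomal protein genes and of ribosome biogenesis, and IL4 brings macrophages into what is called alternative activation.

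The start sites show the difference in sequence between the sets. In the RefSeq promoter table (GRCm38.p6), 66 of the 100 cytosolic and 69 of the 78 mitochondrial genes had an entry, as did 10624 of the 13553 genes of the whole table. A start at C with at least 4 further pyrimidines was annotated for 14 of the 66 cytosolic genes (21.2%), 0 of the 69 mitochondrial genes and 3.09% of the genes of the table. This share depends on the exact base that is annotated as the start. With any run of at least 9 pyrimidines between 20 bases before and 49 bases after a start, a definition chosen after the data had been seen, the shares were 72.7% of cytosolic genes, 18.8% of mitochondrial genes and 19.5% of the genes of the table. Windows of 30 bases on the gene's own strand follow, 15 before and 15 from the annotated start on, so that the 16th base is the start. Capitals mark a C start with its pyrimidine run, or the start base alone where there is no such run.

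The first 6 are cytosolic genes with a pyrimidine start. They include Rps6 and Rps27, whose copies were listed at higher values than they were, and the Rps27 retrogene Rps27rt.

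Rpl35 (chr2:39005117-39005146, minus strand): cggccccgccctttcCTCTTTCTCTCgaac
Rps6 (chr4:86857353-86857382, minus strand): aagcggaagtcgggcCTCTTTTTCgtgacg
Rps18 (chr17:33955651-33955680, minus strand): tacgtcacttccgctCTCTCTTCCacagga
Rpl38 (chr11:114668565-114668594, plus strand): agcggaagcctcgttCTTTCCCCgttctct
Rps27 (chr3:90213634-90213663, minus strand): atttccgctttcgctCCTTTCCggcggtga
Rps27rt (chr9:114982725-114982754, minus strand): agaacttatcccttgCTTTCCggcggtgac

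The next 3 are cytosolic genes without such a start at the annotated base. Rpl36a and Rpl12 had the largest IL4 changes in vehicle of the core genes that passed the test, and Rpl10 had the smallest change in vehicle of the core genes.

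Rpl36a (chrX:134585639-134585668, plus strand): gtgcacccaggcaccGcctataaacttccg
Rpl12 (chr2:32961697-32961726, plus strand): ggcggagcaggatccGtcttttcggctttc
Rpl10 (chrX:74270801-74270830, plus strand): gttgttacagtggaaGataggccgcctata

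The last 4 are mitochondrial genes. Mrpl27 and Mrpl30 had the largest IL4 changes of that set, and Mrpl17 and Mrps18b passed the test under RA.

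Mrpl27 (chr11:94653776-94653805, plus strand): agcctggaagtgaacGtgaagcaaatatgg
Mrpl30 (chr1:37890462-37890491, plus strand): gaaccaaagaaccgtAcggtctgtgacggc
Mrpl17 (chr7:105811073-105811102, minus strand): tactgcgcatgcgtcCtctgagacgtgcct
Mrps18b (chr17:35916426-35916455, minus strand): cattgcggggcgtgtCcttggcccacccta

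Other short motifs were searched on both strands of the full window, 250 bases before to 50 after a start. CCGGAAG, the core that ETS factors recognise, was found in 39.4% of cytosolic promoters, 37.7% of mitochondrial promoters and 19.8% of promoters of the table. AAGATGGC, the core of the YY1 motif, was found in 9.09%, 17.4% and 5.27% of the same 3 groups, and TATAAA in 12.1%, 7.25% and 9.27%. A match describes the letters of the window and does not show binding.

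Read counts were not used here. The steps between the lowest repeated values were searched within a fixed range of sizes, on 2 to 9 values a library. They put the depth roughly at 30.8 to 47.9 M reads a library, with the IL4 RA libraries lowest (30.8 to 32.7 M). So few TMM-scaled values do not establish the depths or their order. A linear model in limma was fitted to the deposited log2 CPM (counts scaled to a common library size) of the 12116 genes that reached 1 CPM in 3 or more libraries, and genes with an adjusted p under 0.05 passed the test. Of the members, 94 cytosolic and all 78 mitochondrial genes passed this filter on low values. The 6 left out were 5 copies and the paralogue Rpl39l, at -3.67 to 0.35 log2 CPM over the 12 libraries. Arg1 and Retnla, targets of IL4, rose by 8.51 and 10.70 (log2) in IL4 vehicle against naive vehicle libraries, and the RA target Rarb rose by 4.11 in naive RA against naive vehicle libraries. All 8 macrophage markers were measured. Markers of T cells, B cells, red cells, and eosinophils or mast cells had no entry in the table.

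Whether IL4 changed the amount of ribosomal protein mRNA was examined in both vehicle and RA-treated cells, which share no library. The cytosolic genes summed to 41856, 39597 and 39576 CPM in IL4 vehicle libraries, against 31806, 32655 and 31765 CPM in naive vehicle libraries. With RA the sums were 39439, 43425 and 43601 CPM in IL4 RA libraries, against 35351, 33131 and 34878 CPM in naive RA libraries. Every IL4 library lay above every naive library. The ratio of the means was 1.26 in vehicle and 1.22 in RA, and the set's share of its library was 3.90% in IL4 vehicle and 3.36% in naive vehicle libraries.

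The mitochondrial genes summed to 2151, 2064 and 2039 CPM in IL4 vehicle libraries, against 1883, 1924 and 1866 CPM in naive vehicle libraries. With RA their sums were 2026, 2178 and 2207 CPM in IL4 RA libraries, against 2031, 1974 and 2022 CPM in naive RA libraries, so the groups overlapped. The ratios of means were 1.10 in vehicle and 1.06 in RA. As a share of the library, which does not use the TMM scaling between libraries, the set held 0.201% in IL4 vehicle and 0.198% in naive vehicle libraries, and 0.204% in IL4 RA and 0.207% in naive RA libraries.

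A ratio of the sums within a library needs no scaling between libraries. Cytosolic over mitochondrial CPM was 19.5, 19.9 and 19.8 in IL4 RA libraries and 19.5, 19.2 and 19.4 in IL4 vehicle libraries. It was 17.4, 16.8 and 17.2 in naive RA libraries and 16.9, 17.0 and 17.0 in naive vehicle libraries. The 6 IL4 libraries lay above the 6 naive libraries without overlap, and the RA and vehicle libraries of the naive state overlapped. In the IL4 state the RA libraries lay above the vehicle libraries, with the nearest ones at 19.47 in IL4 RA and 19.46 in IL4 vehicle.

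**Figure D1:**
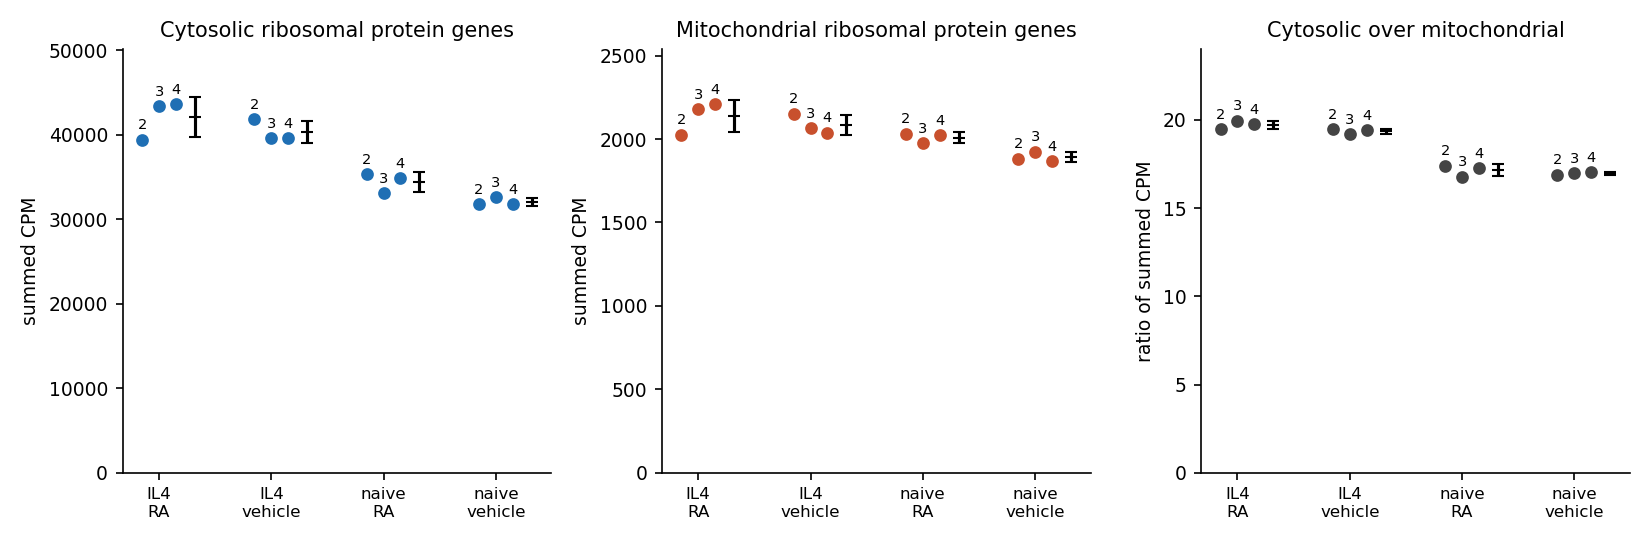
Summed CPM (deposited log2 values returned to the linear scale) of the cytosolic genes, of the mitochondrial genes, and their ratio, in each library of the 4 groups; points are libraries with their replicate number, and the bar beside them is the mean ± SD (n = 3). The cytosolic sums and the ratio separate the IL4 from the naive libraries, with mean ratios of 19.7 in IL4 RA, 19.4 in IL4 vehicle, 17.1 in naive RA and 17.0 in naive vehicle libraries.

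Of the 94 cytosolic genes tested, 85 rose and 1 fell in IL4 vehicle against naive vehicle libraries, where 60.1% of all genes passed, 30.5% higher and 29.6% lower. The median change was 0.33 on the log2 scale, beside -0.01 for all genes tested, and the quartiles were 0.26 and 0.42. In RA-treated cells 83 rose and 0 fell, beside 29.0% and 26.7% of all genes (55.7% together), with a median of 0.28 beside -0.00 for all genes. Of these, 81 genes rose in both comparisons, which is 95.3% of the first list and 97.6% of the second. The IL4 libraries lay above the naive libraries without overlap for 85 genes in vehicle (33.0% of all genes) and 73 genes in RA (31.5% of all genes). They lay below without overlap for 2 genes in vehicle (33.3% of all genes) and 0 in RA (29.7% of all genes). An unadjusted p under 0.05 was found for 86 genes in vehicle (64.2% of all genes) and 85 in RA (60.3% of all genes).

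The direction of the cytosolic change kept its sign under the other scalings tried, and its size did not. Dividing each library by its own sum, without the TMM shift, put the median of all genes at -0.12 in both comparisons. Then 74 cytosolic genes rose and 2 fell in vehicle (median 0.21), and 59 rose and 1 fell in RA (median 0.16). Of all 12116 genes, 22.3% passed as higher and 5332 genes as lower in vehicle, and 21.2% and 5106 genes in RA. After quantile normalization 56 rose and 4 fell in vehicle (median 0.16), and 44 rose and 3 fell in RA (median 0.12). There 25.8% of all genes passed as higher and 4318 genes as lower in vehicle, and 24.7% and 4089 genes in RA. The median of all genes was -0.06 in both. Some of 7 markers of proliferation, and markers of some cell types, moved with IL4 too. The 7 markers summed to 521 to 565 CPM in IL4 RA and 540 to 612 CPM in IL4 vehicle libraries, against 319 to 391 CPM in naive RA and 301 to 375 CPM in naive vehicle libraries. Pcna alone was at 361 to 387 CPM in IL4 vehicle and 173 to 179 CPM in naive vehicle libraries. Pcna rose by 1.07, Mcm5 by 0.68 and Mcm2 by 0.30 in vehicle. The changes of Mki67 (0.26), Top2a (0.25), Cdk1 (0.22) and Ccnb1 (-0.21) did not pass the test. In RA Pcna (1.01), Mcm5 (0.70) and Mcm2 (0.41) rose. There Mki67 (0.13), Top2a (-0.02), Cdk1 (-0.10) and Ccnb1 (-0.54) did not pass. The 8 macrophage markers summed to 22230 to 23630 CPM in IL4 RA and 20980 to 23280 CPM in IL4 vehicle libraries, against 36500 to 40870 CPM in naive RA and 37300 to 39350 CPM in naive vehicle libraries. Lyz2 alone was at 13430 to 15480 CPM in IL4 vehicle and 25490 to 27200 CPM in naive vehicle libraries. In vehicle Cd14, Mertk, Fcgr1, Adgre1, Lyz2 and Csf1r passed as lower (-1.86 to -0.46), and Cd68 (-0.04) and Itgam (0.08) did not pass. In RA the same genes passed as lower, Cd68 (0.01) did not pass, and Itgam passed as higher (0.21). The 3 fibroblast markers summed to 10.5 to 23.8 CPM in IL4 RA and 13.3 to 19.0 CPM in IL4 vehicle libraries. In naive RA libraries they summed to 24.7 to 36.9 CPM, and in naive vehicle libraries to 20.4 to 38.2 CPM. The 2 of 4 neutrophil markers that were measured summed to at most 4.34 CPM in any library. The dendritic cell marker Zbtb46, the 1 of 2 measured, lay at 4.07 to 5.74 CPM in IL4 RA and 5.86 to 6.18 CPM in IL4 vehicle libraries, against at most 0.651 CPM in naive libraries. The part of these markers in the result was not tested.

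**Figure D2:**
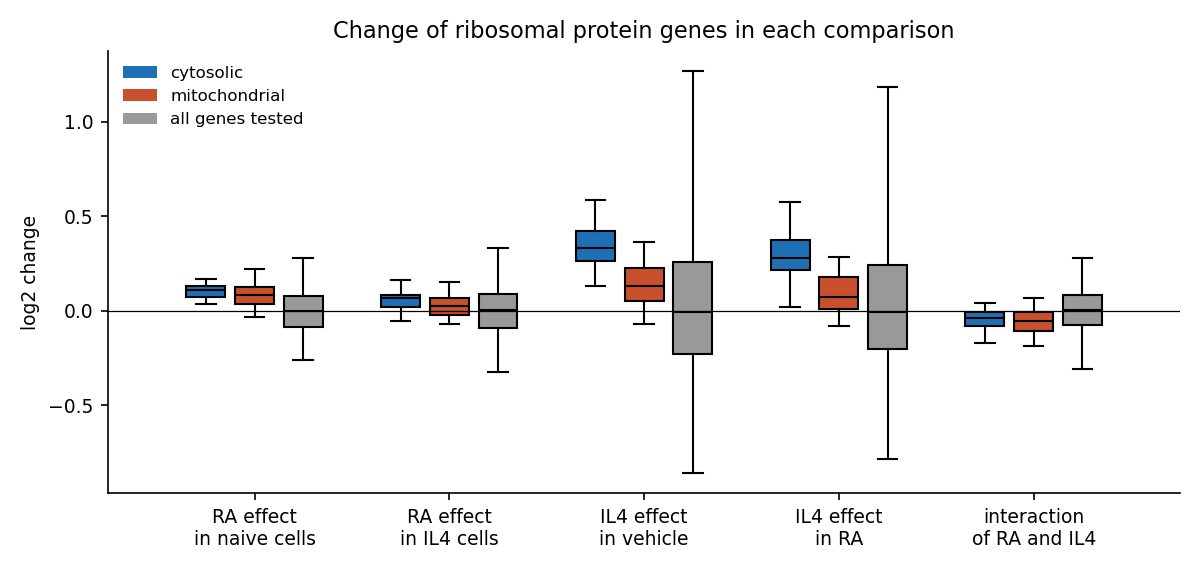
Log2 change of the 94 cytosolic, 78 mitochondrial and 12116 tested genes in each of the 5 comparisons; boxes span the quartiles with the median as a line, and whiskers reach the 5th and 95th percentiles. The IL4 medians are 0.33 and 0.28 for cytosolic genes, 0.13 and 0.07 for mitochondrial genes, and near 0 for all genes. Relative to the library sums, the mitochondrial medians are 0.02 and -0.04, beside -0.12 for all genes in both. The RA medians of both sets lie between 0.02 and 0.11.

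In the small subunit, 29 of 31 core genes rose with IL4 in vehicle (median 0.30) and 27 rose in RA (median 0.25). Of all genes, 30.5% rose in vehicle and 29.0% in RA. Rpsa, the laminin receptor protein that sits at the back of the 40S head, had 9.97, 9.88 and 9.89 log2 CPM in IL4 vehicle libraries, against 9.42, 9.35 and 9.38 in naive vehicle libraries. Its change was 0.53 (SE 0.05, adjusted p = 9.1e-07 in limma), and the groups were far apart relative to their spread. Rps18 (chromosome 17, 33951998 to 33955665), a protein of the 40S head, had 9.24, 9.12 and 9.15 log2 CPM in IL4 vehicle libraries, against 8.56, 8.66 and 8.59 in naive vehicle libraries. It rose by 0.57 in vehicle and by 0.52 in RA, the largest changes of the 40S core genes that passed the test. Rps4x, a 40S protein encoded on the X chromosome, rose by 0.24 (adjusted p = 3.1e-04 in limma) and 0.25, near the low end of the genes that rose. Both calls were lost after quantile normalization, with values of 0.02 (adjusted p = 0.655 in limma) in vehicle and 0.03 (adjusted p = 0.523) in RA.

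In the large subunit, 45 of 46 core genes rose in vehicle (median 0.33) and 44 in RA (median 0.29). Over all genes the shares that rose were 30.5% and 29.0%. Rpl36a (chromosome X, 134585654 to 134588062) had 7.87, 7.69 and 7.72 log2 CPM in IL4 vehicle libraries, against 7.05, 7.15 and 7.14 in naive vehicle libraries, a change of 0.65 (SE 0.06, adjusted p = 3.4e-07 in limma). Rpl12 (chromosome 2, 32961712 to 32964045), which binds at the base of the stalk, had 9.19, 9.07 and 9.05 log2 CPM in IL4 vehicle libraries, against 8.52, 8.48 and 8.46 in naive vehicle libraries, a change of 0.62 (SE 0.05). Rpl10a (chromosome 17, 28328471 to 28331033), a protein of the L1 stalk, rose by 0.59 (SE 0.06) in vehicle and 0.58 in RA. No IL4 library of these 3 genes overlapped a naive library. Rpl3, a protein close to the peptidyl transferase centre, rose by 0.44 in vehicle and 0.45 in RA.

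The 3 acidic stalk proteins, which recruit elongation factors, rose together in both comparisons. Rplp0 had 1311, 1260 and 1220 CPM in IL4 vehicle libraries, against 1038, 1026 and 999.9 CPM in naive vehicle libraries. Its log2 change was 0.31 (SE 0.04, adjusted p = 5.0e-05 in limma). Rplp1 rose by 0.32 and 0.24, and Rplp2 by 0.22 and 0.19. After quantile normalization none of these 6 calls remained in limma: Rplp0 was at 0.07 in vehicle and 0.08 in RA, Rplp1 at 0.07 and 0.02, and Rplp2 at 0.07 and 0.05. Library-sum scaling also ended the calls of Rplp2 in both comparisons (0.10 and 0.08) and of Rplp1 in RA (0.13). Per kilobase of transcript, Rplp1 was the highest core gene in all 4 groups, at 1972 CPM per kb in IL4 RA, 1877 in IL4 vehicle, 1667 in naive RA and 1505 in naive vehicle libraries. The median of the 77 core genes was 623, 607, 495 and 472 CPM per kb in the same groups, and that of the mitochondrial genes was 20.7, 19.7, 20.0 and 19.1 CPM per kb.

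A few cytosolic genes did not follow the others. Rpl10 (chromosome X, 74270816 to 74273135), a 60S protein that joins the subunit late in its maturation, had 10.18, 10.16 and 10.17 log2 CPM in IL4 vehicle libraries, against 10.14, 10.19 and 10.13 in naive vehicle libraries. The groups overlapped, and the change was 0.02 (SE 0.04, adjusted p = 0.675 in limma) in vehicle and 0.02 in RA. After quantile normalization its change had the other sign, -0.25 in vehicle and -0.24 in RA. Rps9, a 40S protein important for decoding accuracy, changed by 0.06 (SE 0.05) in vehicle and 0.01 in RA, and was named after its values were seen because it was the other core gene below 0.10 in vehicle. Rpl10 was at 1395 CPM per kb in IL4 vehicle and 1374 CPM per kb in naive vehicle libraries.

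Paralogues of core proteins followed no single pattern. Rpl22l1, the paralogue of Rpl22, had 5.86, 5.41 and 5.58 log2 CPM in IL4 vehicle libraries, against 5.22, 4.86 and 5.03 in naive vehicle libraries, and rose by 0.58 (SE 0.12, adjusted p = 9.4e-04 in limma). Rpl22 itself rose by 0.33 (SE 0.04). Rps27l rose by 0.42 and Rpl36al by 0.22, whereas Rpl7l1 changed by -0.06 (SE 0.04, adjusted p = 0.181 in limma), beside a rise of 0.22 for Rpl7. Rpl7l1 passed as lower in both comparisons after quantile normalization (-0.11 in vehicle and -0.10 in RA) and with library-sum scaling (-0.18 and -0.16). The rise of Rpl7 in vehicle had the value -0.01 after quantile normalization. Rps4l, at 2.28 to 2.95 log2 CPM, changed by 0.26 (SE 0.15) and did not pass the test.

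**Figure D3:**
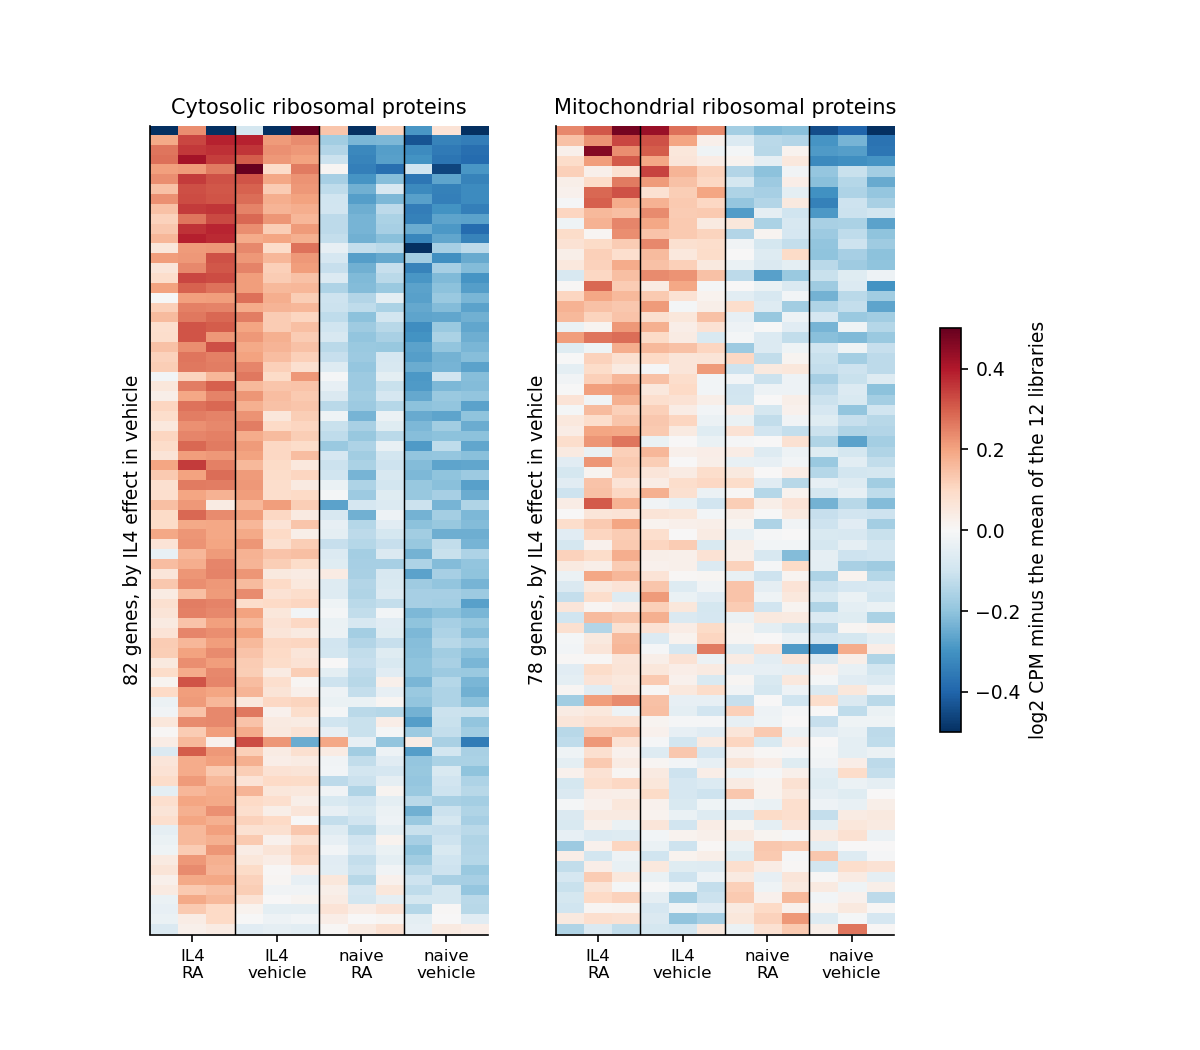
Deviation of each gene in each of the 12 libraries from its own mean over the libraries (log2 CPM), for 82 cytosolic genes (copies and Rps19bp1 left out) and 78 mitochondrial genes, ordered from top to bottom by the IL4 effect in vehicle; each group holds replicates 2, 3 and 4 from left to right, and the colour range ends at 0.5 in each direction. The cytosolic genes are higher in nearly all IL4 columns, replicate 2 of IL4 RA is paler than the other IL4 RA libraries, and the lower part of the mitochondrial panel shows no separation by group.

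Copies of cytosolic genes took reads that could not be assigned with certainty. Per 101-base window, the length of a read, all windows of the pseudogene Rps6-ps4 were also found in a transcript of Rps6, and 89.4% of those of the retrogene Rps27rt were found in transcripts of Rps27. Rps6, the 40S protein that S6 kinases phosphorylate, was at 5.14, 5.20 and 5.03 log2 CPM in IL4 RA, 5.15, 5.20 and 5.11 in IL4 vehicle, 4.72, 4.90 and 4.92 in naive RA, and 4.88, 4.76 and 4.84 in naive vehicle libraries. Rps6-ps4 was at 9.31, 9.41 and 9.41 log2 CPM in IL4 RA, 9.34, 9.29 and 9.23 in IL4 vehicle, 8.93, 8.86 and 8.93 in naive RA, and 8.83, 8.83 and 8.82 in naive vehicle libraries. The copy thus carried the larger value in every library, and neither value can be read as the level of 1 locus. Summed before the fit, Rps6 and its copy rose by 0.45 with IL4 in vehicle (SE 0.04, adjusted p = 6.2e-07 in limma) and by 0.46 in RA.

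Rps27 lay near 0 log2 CPM in 11 libraries (-0.10 to 0.83) and at 3.58 in replicate 4 of IL4 vehicle, while Rps27rt was at 7.97 to 8.29 in all 12. That 1 library set the change of 1.01 (SE 0.69) listed for Rps27 in vehicle, which did not pass the test (adjusted p = 0.219 in limma). Summed, Rps27 and Rps27rt changed by 0.12 (SE 0.07, adjusted p = 0.145) in vehicle and by -0.02 in RA, so the pair stood with Rpl10 and Rps9 among the genes that did not pass. Rps27a, which encodes a fusion of ubiquitin with a 40S protein, lay below its copy Rps27a-ps3 in all libraries, and their sum rose by 0.37 in vehicle and 0.33 in RA. The windows that Rps27a-ps3 shares with Rps27a were not computed here.

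The other copies were mostly low. Rpl17-ps8, of whose windows 61.0% were shared with Rpl17, had 5.04, 5.02 and 4.94 log2 CPM in IL4 vehicle libraries, against 4.37, 4.14 and 4.20 in naive vehicle libraries. It rose by 0.77 (SE 0.07, adjusted p = 6.6e-07 in limma), beside 0.40 for Rpl17. Rps15a-ps4 rose by 0.59 in vehicle. Rps19-ps3 was the 1 cytosolic gene that fell with IL4 in vehicle, at -0.18, 0.01 and 0.11 log2 CPM in IL4 vehicle libraries against 0.92, 0.80 and 0.89 in naive vehicle libraries, and it was named after its values were seen. With copies and Rps19bp1 left out, 77 of 82 cytosolic genes rose in vehicle and 0 fell, beside 30.5% and 29.6% of all genes.

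**Figure D4:**
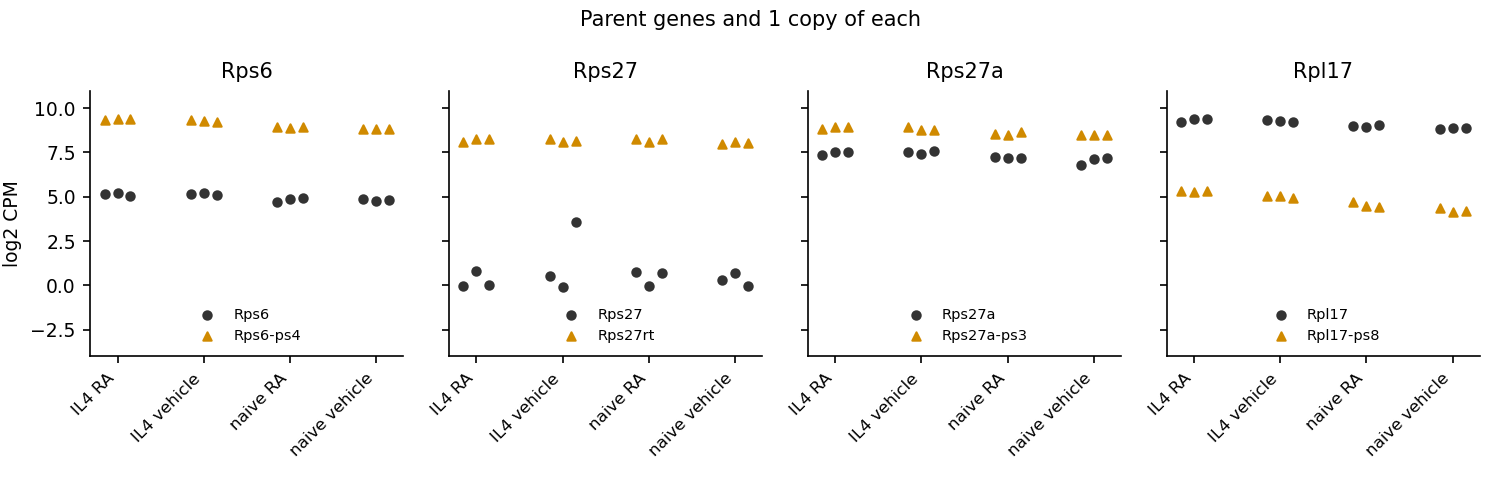
Log2 CPM of 4 parent genes (circles) and 1 copy of each (triangles) in the 12 libraries, 3 per group. Rps6-ps4, Rps27rt and Rps27a-ps3 lie above their parents in every library, Rpl17-ps8 lies below Rpl17, and Rps27 is at 3.58 in 1 IL4 vehicle library.

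Of the 78 mitochondrial genes, 37 rose with IL4 in vehicle and 0 fell, with a median of 0.13, beside the 30.5% and 29.6% of all genes. In RA 24 rose (30.8%) and 0 fell, with a median of 0.07, beside 29.0% and 26.7%, so the share that rose lay near the background. The 23 genes that rose in both were 62.2% of the first list and 95.8% of the second. The IL4 libraries lay above the naive libraries without overlap for 45 genes in vehicle (33.0% of all genes) and 21 in RA (31.5% of all genes). They lay below without overlap for 1 gene in vehicle (33.3% of all genes) and 3 in RA (29.7% of all genes). The counts of genes that passed rest on the scaling. Relative to the library sums, 16 rose and 10 fell in vehicle (median 0.02), beside 22.3% higher over all genes. There 5332 of the 12116 genes passed as lower, and the median of all genes was -0.12. In RA 5 rose and 14 fell (median -0.04), beside 21.2% higher and 5106 genes lower, with a median of -0.12 for all genes. The set median thus turned negative in RA and stayed above that of all genes. In RA 12 passed without replicate 4 of IL4 RA and 14 without replicate 3 of naive RA. The small subunit gave 15 of 29 and the large subunit 22 of 49 genes that rose in vehicle, and proteins with a bacterial number (21 of 44) and those with higher numbers (16 of 34) did so at like shares.

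Mrpl27 (chromosome 11, 94653770 to 94661932), the counterpart of bacterial L27 at the peptidyl transferase centre, had the largest change of the set. It had 5.46, 5.30 and 5.26 log2 CPM in IL4 vehicle libraries, against 4.58, 4.63 and 4.50 in naive vehicle libraries. The change was 0.77 (SE 0.07, adjusted p = 3.4e-07 in limma) in vehicle and 0.55 in RA. The groups did not overlap in either comparison.

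Mrpl30 (chromosome 1, 37890477 to 37898338), the counterpart of bacterial L30, had 5.44, 5.32 and 5.15 log2 CPM in IL4 vehicle libraries, against 4.83, 4.89 and 4.75 in naive vehicle libraries, and rose by 0.48 (SE 0.07). Mrps28 rose by 0.42 (SE 0.11), Mrpl13 by 0.40 (SE 0.06) and Mrpl39 by 0.37 (SE 0.06) in vehicle. In RA Mrpl42 rose by 0.33 and Mrps18b by 0.32. At the other end, Mrpl1 had 4.14, 4.13 and 4.28 log2 CPM in IL4 vehicle libraries, against 4.26, 4.49 and 4.23 in naive vehicle libraries, a difference of -0.14 (SE 0.07) that did not pass; it was named after its values were seen.

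Changes were smaller for some well known members. Mrpl12, which also binds the mitochondrial RNA polymerase, rose by 0.18 (SE 0.06, adjusted p = 0.0297 in limma) in vehicle and 0.19 in RA. Both calls were lost with library-sum scaling (adjusted p = 0.429 in vehicle and 0.311 in RA in limma), after quantile normalization or median centring, and without any 1 of 4 libraries in each comparison. Mrps36, which is also known as a subunit of the 2-oxoglutarate dehydrogenase complex, rose by 0.13 in vehicle and 0.19 in RA. With library-sum scaling neither call remained (0.02 and 0.08), and that in vehicle was also lost with median centring, quantile normalization, the replicate block (adjusted p = 0.0522 in limma) and without any 1 of several libraries. Mrps12, the counterpart of the bacterial decoding protein S12, changed by 0.10 (SE 0.08), and Mrpl41 by 0.17 (SE 0.07, adjusted p = 0.0502), and neither passed.

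**Figure D5:**
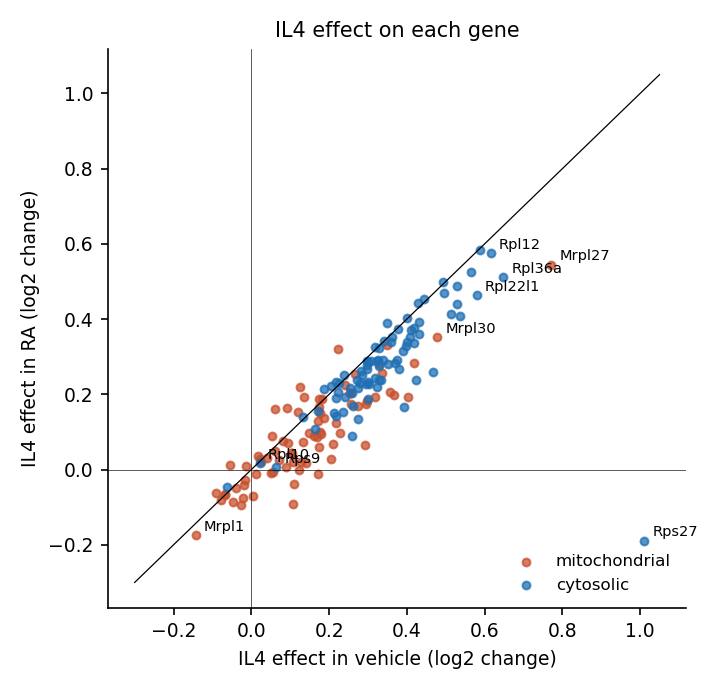
IL4 effect in vehicle (x axis) and in RA (y axis), each a log2 change from separate libraries, for 82 cytosolic genes (copies and Rps19bp1 left out) and 78 mitochondrial genes; the diagonal marks equal effects. Rpl12 lies at 0.62 and 0.58, Rpl10 at 0.02 and 0.02, Mrpl27 at 0.77 and 0.55, and Rps27 far off the diagonal at 1.01 and -0.19 through 1 library. Relative to the library sums the mitochondrial medians are 0.02 and -0.04, beside -0.12 for all genes in both comparisons.

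What RA did within each state was compared next. In naive RA against naive vehicle libraries, 1 cytosolic gene rose and 0 fell, beside 3.24% and 3.03% of all genes (6.26% together). The differences were small and mostly of 1 sign: the median was 0.11, beside -0.00 for all genes, and 92 of 94 were positive, beside 49.6% of all genes. Genes of the set moved together by library, so these signs are not independent. Replicate 3 of naive RA held the lowest value of its group for 76 of the 94, and replicate 3 of naive vehicle the highest for 62. The SD of the library medians within groups was 0.066. The groups did not overlap for 46 genes that were higher in naive RA (12.8% of all genes), and 32 had an unadjusted p under 0.05 (19.9% of all genes). The 1 that passed was the copy Rpl17-ps8, with 4.68, 4.48 and 4.45 log2 CPM in naive RA libraries against 4.37, 4.14 and 4.20 in naive vehicle libraries, a change of 0.30 (SE 0.07, adjusted p = 0.0209 in limma). With copies left out or summed with their parents, 0 cytosolic genes passed in limma, and 29 of 82 had an unadjusted p under 0.05 with copies left out. Without replicate 4 of naive vehicle or replicate 2 of naive RA 0 genes passed, and without replicate 2 of IL4 RA, which enters the estimate of the spread, 5 did.

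In IL4 RA against IL4 vehicle libraries, 3 cytosolic genes rose and 0 fell, beside 6.50% and 5.18% of all genes. The median was 0.07, and 81 of 94 were positive (50.9% of all genes). Only 9 had an unadjusted p under 0.05 (25.5% of all genes), and the groups did not overlap for 6 that were higher (14.5% of all genes). The 3 that passed were Rpl17-ps8 (0.30), Rps19-ps3 (0.55) and Rpl29 (0.16, SE 0.04, adjusted p = 0.028 in limma). Rps19-ps3, at 0.885 to 1.73 CPM in the IL4 libraries, passed in 2 of 12 fits that left out 1 library. Rpl29, a 60S protein, had 8.70, 8.86 and 8.76 log2 CPM in IL4 RA libraries, against 8.67, 8.60 and 8.56 in IL4 vehicle libraries. It passed in 8 of 12 fits that left out 1 library, with adjusted p up to 0.125 in limma. Its call was also lost after quantile normalization, without the intensity trend and with only the groups compared. Replicate 2 of IL4 RA held the lowest value of its group for 86 of the 94 cytosolic and 63 of the 78 mitochondrial genes, and replicate 2 of IL4 vehicle the highest for 79 and 53. Without that IL4 RA library 13 cytosolic genes passed, and without replicate 4 of either IL4 group 0 did. Without replicate 3 of either IL4 group 1 passed.

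Of the mitochondrial genes, 7 rose and 0 fell with RA in naive cells, beside 3.24% and 3.03% of all genes. The median was 0.08, 66 of 78 were positive (49.6% of all genes), and the groups did not overlap for 26 that were higher (12.8% of all genes). Replicate 3 of naive RA held the lowest value of its group for 41 of the 78, and replicate 3 of naive vehicle the highest for 43. The SD of the library medians within groups was 0.046 for this set. An unadjusted p under 0.05 was found for 17 of the 78 in limma, near the 19.9% of all genes. Mrpl13 had 5.17, 5.11 and 5.21 log2 CPM in naive RA libraries, against 4.84, 4.85 and 4.86 in naive vehicle libraries, a change of 0.32 (SE 0.06, adjusted p = 0.0048 in limma). It passed in each of 12 fits that left out 1 library. Mrpl23 rose by 0.27, Mrpl27 by 0.26, Mrpl17 by 0.22, Mrpl22 by 0.20 and Mrpl45 by 0.18. Mrps18a, which rose by 0.20, lies outside the naming rule and completes the 7. Only 1 of the 7 passed without replicate 4 of naive vehicle, and likewise without replicate 4 of naive RA; leaving out 1 of the other 4 naive libraries left 3 or 4.

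In IL4 cells 4 mitochondrial genes rose with RA and 0 fell, beside 6.50% and 5.18% of all genes, a share near the background. The median was 0.02, and 50 of 78 were positive (50.9% of all genes). Mrps18b (chromosome 17, 35910380 to 35916440), a small subunit protein, had 5.04, 5.10 and 5.11 log2 CPM in IL4 RA libraries, against 4.92, 4.87 and 4.75 in IL4 vehicle libraries. Its change was 0.23 (SE 0.05, adjusted p = 0.00931 in limma), and it passed in all 12 fits that left out 1 library. Mrpl23 (0.22), Mrpl45 (0.21) and Mrpl17 (0.21) rose in both states, which share no library. Mrpl17 (chromosome 7, 105803782 to 105811087) had 5.11, 5.25 and 5.29 log2 CPM in IL4 RA libraries, against 4.99, 5.03 and 4.99 in IL4 vehicle libraries, and 5.02, 5.03 and 5.10 in naive RA libraries, against 4.88, 4.76 and 4.86 in naive vehicle libraries. Without any 1 of replicate 2, 3 or 4 of IL4 vehicle, or of replicate 3 or 4 of IL4 RA, 2 genes passed. Mrpl45, which helps to attach the mitochondrial ribosome to the inner membrane, did not pass with IL4 (-0.09 in vehicle, -0.06 in RA). It passed as lower in vehicle with median centring (-0.12), quantile normalization (-0.12) and library-sum scaling (-0.21), and without replicate 2 of IL4 vehicle (-0.13). In RA it passed as lower with library-sum scaling (-0.17).

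The difference between the RA effect in IL4 cells and that in naive cells was tested as an interaction in limma. It passed for 0 cytosolic and 0 mitochondrial genes, beside 0.380% of all genes, 0.338% higher and 0.0413% lower. At an unadjusted p under 0.05 there were 4 genes of each set, beside 8.30% of all genes. The median interaction was -0.04 for cytosolic and -0.05 for mitochondrial genes, beside 0.01 for all genes. The 4 mitochondrial genes included Mrpl22 (-0.23, SE 0.08), Mrpl27 (-0.23, SE 0.09) and Mrpl13 (-0.21, SE 0.08). The cytosolic ones included Rpl39, a small protein of the 60S exit tunnel (-0.23, SE 0.09, adjusted p = 0.533), and Rps27l.

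The changes were also divided by annotated start. This split rests on the exact base annotated. A run of at least 9 pyrimidines near a start was found for 72.7% of cytosolic genes with a promoter entry. The split therefore cannot separate genes with a TOP sequence from those without. With IL4 in vehicle, 12 of the 14 tested cytosolic genes with a C and pyrimidine start rose, with a median of 0.33, and 47 of 51 with another start rose, also with a median of 0.33. In RA 12 of 14 rose with a median of 0.28, and 47 of 51 with a median of 0.27. Over all genes, 30.5% rose in vehicle and 29.0% in RA. Rps18 and Rpl38 have such a start and Rpl12 and Rpl36a do not, as the printed windows show. The 2 of the 14 that did not pass in vehicle were Rps27 and Rps27rt.

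Genes of the cytosolic ribosome whose symbols the rule does not catch were also measured. Rack1, a scaffold on the 40S head, rose by 0.39 with IL4 in vehicle, and Fau, whose product carries a 40S protein, by 0.17. Of 6 mitochondrial ones, 2 rose (33.3%), beside 30.5% of all genes, a share near the background. They were Chchd1 (0.24) and Aurkaip1 (0.17). With IL4 in RA 0 of the 6 passed, beside 29.0% higher and 26.7% lower over all genes. Oxa1l, which inserts proteins into the inner membrane and binds the mitochondrial ribosome, rose by 0.18 with RA in IL4 cells. It was the 1 of the 6 that passed there, beside 6.50% of all genes.

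Of 40 genes whose products build the cytosolic ribosome, 25 rose (62.5%) and 0 fell with IL4 in vehicle (median 0.19), beside 30.5% and 29.6% of all genes. In RA 28 rose (70.0%) and 0 fell (median 0.24), beside 29.0% and 26.7%. Rrs1, an assembly factor of the 60S subunit, rose by 0.67 (SE 0.05), Nop16 by 0.55, Gar1 of the H/ACA particles by 0.51 and Tsr1, a 40S maturation factor, by 0.49. With RA in naive cells 0 of the 40 passed in limma, beside 3.24% higher and 3.03% lower over all genes. There 5 had an unadjusted p under 0.05 in limma, beside 19.9% of all genes. In IL4 cells 11 rose with RA (27.5%, beside 6.50% of all genes, median 0.09). Among them were Polr1a, the largest subunit of RNA polymerase I (0.32, SE 0.06), Dkc1 (0.30), Rrp12 (0.28) and Nop2 (0.24). None of the 40 passed the interaction test in limma, beside 0.380% of all genes, and 3 had an unadjusted p under 0.05, beside 8.30%. Of 38 cytosolic translation factors, 26 rose (68.4%) and 4 fell with IL4 in vehicle, beside the same 30.5% and 29.6% of all genes. Eif3k (0.54), Eif5a (0.53), Eif4a1 (0.39) and Eif6 (0.39) were highest. Tpt1 rose by 0.25 with RA in naive cells and Eef1g by 0.13 with RA in IL4 cells.

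Of 31 genes of mitochondrial translation and ribosome assembly, 5 rose (16.1%) and 7 fell with IL4 in vehicle (median -0.04), beside 30.5% and 29.6% of all genes. In RA 5 rose and 7 fell (median 0.01), beside 29.0% and 26.7% of all genes. Tfb1m, the methyltransferase that modifies the small subunit rRNA, rose by 0.54 (SE 0.11), while Rbfa, a maturation factor of the small subunit, fell by 0.40 (SE 0.05), Mrm2, an rRNA methyltransferase, by 0.38, and Rmnd1 by 0.32. Of 17 mitochondrial tRNA synthetases 4 rose (23.5%) and 3 fell in vehicle, with Vars2 lowest at -0.75 (SE 0.09). With RA in IL4 cells Vars2 rose by 0.30, Tars2 by 0.20 and the pseudouridine synthase gene Rpusd4 by 0.24.

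Of 17 regulators of ribosomal protein mRNAs, 6 rose and 5 fell with IL4 in vehicle, beside 30.5% and 29.6% of all genes, and 6 rose and 3 fell in RA, beside 29.0% and 26.7%. These shares lie near the background. Myc rose by 1.77 (SE 0.12) in vehicle and 1.95 in RA. Its partner Max rose by 0.63 and Larp1 by 0.57 in vehicle, whereas Eif4ebp2, an inhibitor of cap-dependent translation, fell by 0.53 and its relative Eif4ebp1 rose by 0.49. With RA in naive cells Rptor, the mTORC1 subunit that recruits substrates, fell by 0.19, and in IL4 cells Mxd1 fell by 0.29, Max by 0.21 and Rheb, the activator of mTORC1, by 0.18. None of the 17 passed the interaction test in limma, beside 0.380% of all genes, and 1 had an unadjusted p under 0.05, beside 8.30%.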

How the data were processed

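The deposited table holds log2 CPM with TMM scaling, made by the authors from 12 poly(A) RNA libraries (TruSeq stranded mRNA, 101 cycles, per the labels). The submitters' processing notes name bcl2fastq 2.20, Salmon 0.13.1, edgeR 3.32.1 and the build GRCm38, with no role or order. Reads shared by near-identical copies can be split between them at that step. Genes that reached 1 CPM in 3 or more libraries were kept here (12116 of 13553, 1437 removed), and a linear model with 1 mean per group was fitted to all 12 libraries in limma 3.58.1 (R 4.3.3) with an intensity trend. It gave 5 comparisons: RA against vehicle in naive and in IL4 cells, IL4 against naive in vehicle and in RA, and the interaction. P-values were adjusted by the Benjamini-Hochberg method over all genes tested, and an adjusted p under 0.05 passed. The fit was tested on simulated data. The members, gene lists and marker lists were chosen with earlier results of these data known. Named genes were, for each comparison and set, up to 5 increases and 5 decreases of the largest size among genes that passed with at least 4 CPM in the higher group, a fixed list of paralogues and specialised members, and up to 4 genes for each pathway list; genes outside it are said to be so where they appear. Counts were not used here, and depth was only roughly estimated from the spacing of a few low values. Levels per kilobase used the median length of GENCODE basic coding transcripts. Sums are of linear CPM.

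Deviations of same-numbered replicates from their group means were positively correlated in every comparison between groups. The correlations were 0.510, 0.277 and 0.0706 for RA in naive cells and 0.245, 0.193 and 0.128 for RA in IL4 cells. For IL4 they were 0.140, 0.209 and 0.182 in vehicle and 0.0895, 0.186 and 0.126 in RA. The numbers may thus pair the libraries, and the labels do not say so. The main fit did not use such a pairing. Alternatives were no filter, another pseudocount, median centring, quantile normalization, no intensity trend, only the groups compared, a replicate block and leaving out each library. Library-sum scaling, summing copies with their parents and leaving copies out were added after the data had been seen.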

Additional observations from a re-analysis of the deposited data

How the results depend on the processing

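The IL4 counts of cytosolic genes were the steadiest: without 1 library 82 to 86 genes passed in vehicle and 72 to 84 in RA. Over all alternatives and comparisons, counts of genes that passed stayed within 1.5 times for 176 and moved further for 32. The 176 include the interaction, where 0 genes passed in the main fit and without any 1 library. Set medians moved by more than the spread between libraries for 6 of 208. That spread (0.066 cytosolic, 0.046 mitochondrial) is wide beside the RA medians. The mitochondrial median of 0.02 for RA in IL4 cells ran from -0.0007 to 0.0631 without 1 library. With quantile normalization the cytosolic IL4 medians were 0.16 in vehicle and 0.12 in RA, and 47 cytosolic genes passed in RA. With library-sum scaling they were 0.21 and 0.16, and the mitochondrial medians 0.017 and -0.038, beside -0.12 for all genes in both. Quantile normalization also reversed Rpl10 (-0.25 in vehicle and -0.24 in RA) and Rpl7 (-0.010 in vehicle). For RA in naive cells the cytosolic count of 1 became 3 with quantile normalization, 4 with only the groups compared, 2 with the replicate block, 0 with copies summed or left out, and 0 to 5 without 1 library. For RA in IL4 cells the cytosolic count of 3 became 1 with quantile normalization and with copies summed or left out, and 0 to 13 without 1 library. The mitochondrial count of 7 for RA in naive cells became 4 without the intensity trend or with only the groups compared, and 1 to 7 without 1 library. That of 4 for RA in IL4 cells became 2 to 5, and those of 37 and 24 for IL4 became 26 to 40 in vehicle and 12 to 30 in RA. The cause of these shifts was not tested. The replicate block gave 86 and 82 cytosolic and 36 and 25 mitochondrial genes for IL4 in vehicle and RA. For RA in IL4 cells it gave 4 of each set. It ended the call of Mrps36 and gave a call to Rps4l, both for IL4 in vehicle, and gave a call to Rps15a-ps4 (RA in IL4 cells). Under RA in naive cells it lost Mrpl22 (adjusted p = 0.0581 in limma). Depth limits copies near 0 log2 CPM, where few reads set a value.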
